A study of Mus musculus with 54 samples.

Results

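Transcripts of 9 Hedgehog pathway genes were described in the follicle wall: the coreceptors Gas1, Boc and Cdon, the receptor Ptch1, the signal transducer Smo, the transcription factors Gli1, Gli2 and Gli3, and the ligand-binding inhibitor Hhip. They were taken by symbol from the 25149 genes of the count and TPM (read counts scaled by transcript length and library) tables, and all 9 were found. The members were chosen by a measured value, the higher level of Gas1 on the ruptured side post-hCG, which had drawn attention to the pathway, so that difference, and the other values of Gas1 that rest on the same libraries, are given as descriptions with no test. Gli1, Gli2 and Hhip averaged under 10 counts per library in each of the 4 groups and were too low to judge anywhere, and Cdon was too low in part of the comparisons.

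Follicles came from CD-1 mice aged 14 to 16 days and grew in alginate hydrogel, which preserves their round form, up to culture day 8. They then spent 12 h out of alginate with EGF, recombinant FSH and serum, and the post-hCG groups also received hCG, which acts through the receptor of luteinizing hormone (LH). Each follicle was then cut into the side that ruptures and the opposite side, and each library holds the amplified cDNA of 1 side. Without hCG there were 15 libraries of the putative unruptured side and 14 of the putative ruptured side, named so because follicles in that medium did not rupture and the cut followed their shape. Post-hCG there were 12 libraries of the unruptured side and 13 of the ruptured side, which makes 54 in all. The follicles were isolated from the ovary and cultured apart from it. Markers of other cells were still counted. The sum of 5 immune markers had a median of 31.5 TPM in putative unruptured (highest 152) and 2.86 in putative ruptured libraries. Post-hCG it was 12.3 in unruptured and 0.440 in ruptured libraries. For 5 surface epithelium markers the median was 0.730 TPM or less in each group, with 53.8 in the highest putative unruptured library. No source links the libraries to single animals, and p-values measure the spread between follicle sides. Both sides of a follicle may be among the libraries of a medium, but no source matches them. The main comparisons of the sides thus treat the libraries as independent.

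Totals ran from 1497138 to 2834794 counts per library (median 2157135). Cumulus-oocyte complex is the tissue given in the labels, but the methods state that these complexes were removed, and 10 oocyte markers summed to a median of 0.200 TPM or less in each group. In 4 libraries without hCG the oocyte markers reached at least 10 TPM: replicates 1, 6 and 7 of the putative unruptured side at 181, 11.2 and 12.9, and replicate 12 of the putative ruptured side at 28.3. Granulosa markers (10 genes) summed to 862 to 19284 TPM over the 54 libraries. Not all were present: Amh was at 0 in every library of both ruptured-side groups. Post-hCG 5 of the 10 reached a mean of 1 TPM on the unruptured and 6 on the ruptured side. Theca and stroma markers (10 genes, such as the collagens and the androgen-synthesizing enzyme gene Cyp17a1) differed widely. Without hCG their sum ran from 126 to 2896 TPM in putative unruptured and from 20.7 to 816 in putative ruptured libraries. Post-hCG it ran from 81.7 to 1351 in unruptured and from 1.27 to 55.0 in ruptured libraries, and in these last Cyp17a1 was at 0 throughout. In such bulk samples, fewer cells of a type and less RNA per cell cannot be told apart.

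Hedgehog ligands bind the receptor Ptch1, which otherwise holds Smo inactive, and active Smo lets the Gli factors switch on target genes in the primary cilium's signaling route. Gas1, Boc and Cdon sit at the cell surface and help Ptch1 to take up ligand, and Ptch1, Hhip and Gli1 are themselves classical targets of the pathway. In the ovary, granulosa cells make the ligands Ihh and Dhh, and theca and stromal cells are the main cells that respond. Gas1 was first known as a gene expressed in growth-arrested cells, is anchored to the membrane by a lipid, and also binds the RET receptor system.

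Gas1 lies on the minus strand of chromosome 13 (GENCODE annotation of GRCm38, 60174405 to 60177365). Its exons overlap those of the noncoding gene Gm48488 on the other strand. The counts are not stated to use strand, so part of the Gas1 counts could come from that gene. Because the level of Gas1 led to the choice of these genes, the 250 bases before its RefSeq start are shown (GRCm38.p6, chr13:60177536-60177785, minus strand, read 5′ to 3′). The RefSeq start lies upstream of the GENCODE one, and distances to the start are from the RefSeq start. The capitals mark a CCAAT box, letters at which nuclear factor Y can bind.
Gas1 promoter: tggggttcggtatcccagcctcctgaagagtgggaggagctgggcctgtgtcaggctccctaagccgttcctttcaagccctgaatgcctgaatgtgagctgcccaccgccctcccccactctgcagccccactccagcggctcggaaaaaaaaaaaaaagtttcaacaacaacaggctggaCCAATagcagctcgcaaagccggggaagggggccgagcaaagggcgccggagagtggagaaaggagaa
The CCAAT box (CCAAT or its reverse complement ATTGG) began 68 bases before the start, and 34.5% of 27025 promoters of this length held one. The window held 58.8% G and C, against a median of 52.0% over all promoters, and 10 CpG against a median of 6. A search of both strands for the Gli motif GACCACCCA found no match in it, and 0.211% of all promoters had one. The cAMP response element TGACGTCA, a palindrome, was not found in it either, and stood in 1.62% of all promoters. Of the members with a promoter sequence in the table (Gas1, Cdon, Ptch1, Smo, Gli2, Gli3 and Hhip), only Hhip held that element, 75 bases before its start. A single window was searched per gene. Those of Cdon (35451826 to 35452075), Ptch1 (63565736 to 63565985) and Gli3 (15463473 to 15463722) lie inside the GENCODE gene. The bases before the outermost GENCODE start of these genes were thus not searched.

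Gas1 was the lowest on the putative ruptured side and the highest on the ruptured side post-hCG. On the putative unruptured side it was measured at 0.860 TPM in the lowest library, 3.31 in the median and 11.1 in the highest (n = 15). On the putative ruptured side the lowest, median and highest libraries were at 0.120, 2.08 and 6.09 TPM (n = 14). Without hCG, then, both sides were low and their ranges overlapped, although each of these 29 libraries held at least 1 count.

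Post-hCG, the unruptured side ran from 4.45 TPM over a median of 10.6 to 35.2 (n = 12). The ruptured side ran from 21.6 TPM over a median of 51.0 to 91.0 (n = 13). All 13 ruptured libraries were above the median of the unruptured side and 10 of 13 above its highest library, so the ranges overlapped at their ends. Each of the 12 unruptured libraries was above the median of the putative unruptured side, and 6 of 12 were above all of its libraries. Between media, the ruptured side showed no overlap at all, as held for 3.43% of the genes tested there in the higher direction.

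On a log scale the mean of log2(TPM + 1) of Gas1 without hCG was 1.97 ± 0.77 in putative unruptured and 1.48 ± 0.89 in putative ruptured libraries, and post-hCG 3.72 ± 0.85 in unruptured and 5.66 ± 0.64 in ruptured libraries (SD). Ordered from the highest group, the gaps between neighbors were 1.94, 1.75 and 0.49. The first and the second exceeded the pooled SD of the groups concerned (0.75 and 0.81), and the third, between the sides without hCG, did not (0.83). The plot of levels by library shows these levels of Gas1 beside the other members, none of which had a gap between neighboring groups above the pooled SD.

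**Figure D1:**
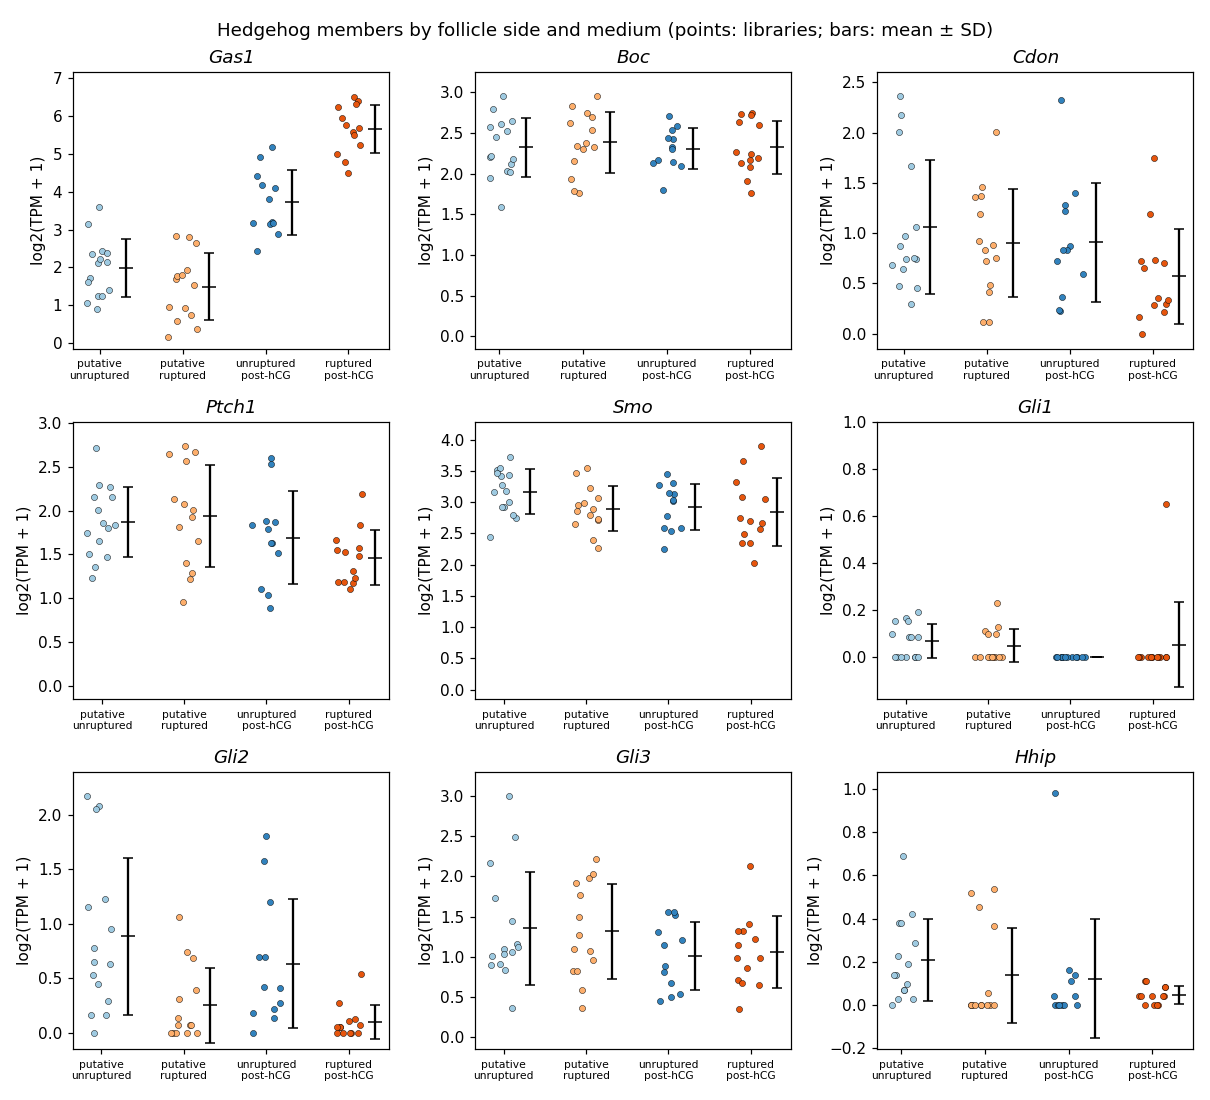
Levels of the 9 members as log2(TPM + 1) on the vertical axes, 1 point per library, in the 4 groups of 15, 14, 12 and 13 libraries, with mean ± SD as black bars. Gas1 climbs from a mean of 1.48 on the putative ruptured side to 5.66 on the ruptured side post-hCG, while the means of Boc and Smo lie close together, Gli1 and Hhip lie near 0, and Gli2 ranges from a mean of 0.89 on the putative unruptured side to 0.10 on the ruptured side post-hCG.

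The fits on counts gave the same description. Fold changes are from edgeR's quasi-likelihood model with TMM scaling, fitted per comparison with no other group's libraries, and a positive log2FC means higher on the ruptured side or, between media, higher post-hCG. Between the sides post-hCG the log2FC of Gas1 was 2.15 (SE 0.28, 4.44-fold), without a test. Between media, unruptured sides gave 1.92 (SE 0.35, 3.79-fold) and ruptured sides 4.76 (SE 0.30, 27.2-fold). The difference between these 2 responses, the interaction of side and hCG, was 2.84 (SE 0.49). Over the alternative settings the post-hCG side difference ran from 1.94 to 2.32 and the response on the ruptured side from 4.17 to 4.94.

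Where Gas1 was highest, the theca and stroma markers were lowest, with a summed median of 4.52 TPM on the ruptured side post-hCG against 367 on the unruptured side. The granulosa markers there summed to a median of 1289 TPM, against 1554 on the unruptured side post-hCG and 13109.9 on the putative ruptured side. The part of these marker differences in the Gas1 level was not tested.

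Gas1 also took over the set of coreceptor transcripts. TPM is per transcript length, so levels of the 3 coreceptors in a library can be set side by side. Without hCG, Boc was mostly the most abundant, and Gas1 exceeded it in 4 of 15 putative unruptured and 2 of 14 putative ruptured libraries. Post-hCG, Gas1 exceeded Boc in 12 of 12 unruptured and 13 of 13 ruptured libraries. Its share of the summed TPM of Gas1, Boc and Cdon had a median of 35.8% in putative unruptured (range 12.7 to 72.8) and 26.0% in putative ruptured libraries (1.84 to 55.5). Post-hCG the median was 69.5% in unruptured (48.4 to 86.0) and 92.3% in ruptured libraries (84.2 to 93.5). The shares on the ruptured side post-hCG varied least between libraries. Gas1 also exceeded Smo, otherwise the most abundant member, in 13 of 13 ruptured and 10 of 12 unruptured libraries post-hCG, but in 1 of 29 libraries without hCG.

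**Figure D2:**
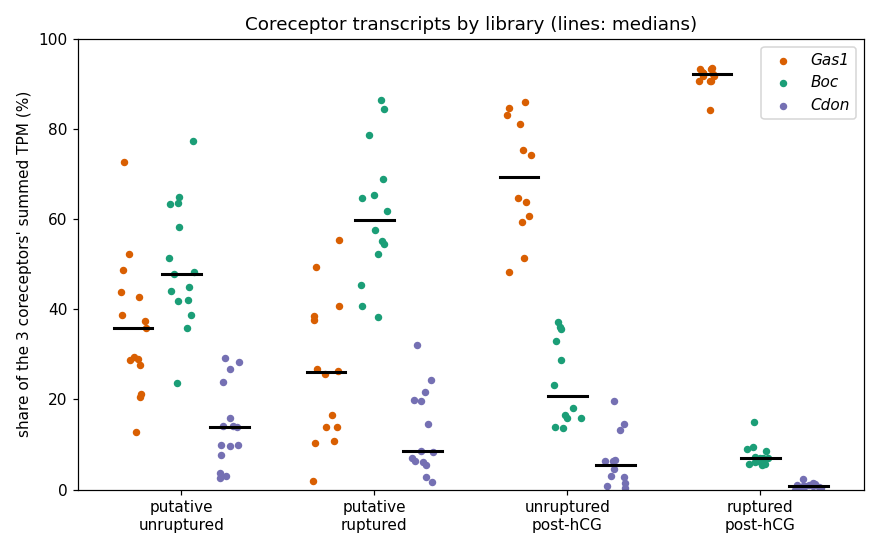
Share of each coreceptor in the summed TPM of Gas1, Boc and Cdon (vertical axis, percent), 1 point per library and gene, with medians as lines, in the 4 groups. The Gas1 median goes from 35.8% and 26.0% without hCG to 69.5% and 92.3% post-hCG, while the Boc median falls below it.

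Boc, an immunoglobulin-type coreceptor (chromosome 16, 44485049 to 44558897), kept nearly 1 level. Its group means were 4.16 ± 1.29, 4.38 ± 1.35, 4.01 ± 0.862 and 4.12 ± 1.16 TPM (SD, in the order putative unruptured, putative ruptured, unruptured and ruptured). The libraries ran from 2.01 to 6.75 TPM over the whole series, and the 4 groups overlapped. Post-hCG its log2FC between the sides was 0.32 (SE 0.11) on counts and 0.02 on log2(TPM + 1), descriptions without a test. Between media on the unruptured side it was called lower only with library totals (−0.33, SE 0.14, edgeR adjusted p = 0.0409).

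Cdon, the close relative of Boc (chromosome 9, 35421128 to 35507652), was the scarcest coreceptor. Its median without hCG was 0.690 TPM in putative unruptured and 0.810 in putative ruptured libraries, and post-hCG 0.780 in unruptured and 0.280 in ruptured ones. Single libraries reached 4.16, 3.03, 4.02 and 2.36 TPM in these groups, so the ranges overlapped. With a mean of 17.0 counts per library in the putative unruptured group and 6.46 to 8.08 in the others, it failed the expression filter in the comparisons of the sides post-hCG and of the media on the ruptured side, where it was too low to judge.

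Ptch1, the receptor and a target of the pathway (chromosome 13, 63508328 to 63573598), was measured at 2.80 ± 1.12 TPM in putative unruptured and 3.12 ± 1.61 in putative ruptured libraries. Post-hCG the unruptured libraries were at 2.44 ± 1.32 and the ruptured ones at 1.82 ± 0.674. Its libraries lay between 0.850 and 5.68 TPM and overlapped between all groups. Smo, the transducer (chromosome 6, 29735503 to 29761365), was at 8.24 ± 2.20 TPM on the putative unruptured side and at 6.66 ± 1.96, 6.80 ± 1.91 and 6.65 ± 3.16 in the putative ruptured, unruptured and ruptured groups. Smo stood above Ptch1 in 53 of 54 libraries.

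Among the Gli factors, Gli3, which in many tissues acts as a repressor when ligand is absent (chromosome 13, 15463235 to 15730026), was the most abundant. It was measured at 1.91 ± 1.81 TPM in putative unruptured and 1.69 ± 1.09 in putative ruptured libraries. Post-hCG it was at 1.10 ± 0.609 in unruptured and 1.19 ± 0.782 in ruptured libraries. It exceeded Gli2 in 11 of 15, 14 of 14, 8 of 12 and 13 of 13 libraries in the same order. Gli2, the main activator (chromosome 1, 118834132 to 119053619), had 98 and 58 counts in all on the unruptured sides without and with hCG, but 32 and 11 on the ruptured sides. Its mean TPM was 1.10 and 0.690 on the unruptured sides, and 0.226 and 0.0769 on the ruptured ones. It failed the filter in each comparison, and these sums cover counts too low for a judgment.

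Gli1, the factor most often used as a readout of Hedgehog signaling (chromosome 10, 127329882 to 127341974), was close to absent. It had 12 counts over 8 of 15 putative unruptured libraries and 6 counts over 5 of 14 putative ruptured libraries. Post-hCG it had 0 counts in the 12 unruptured libraries, which allows up to 0.118 CPM (counts scaled to a fixed library total) over the group (3 counts of the group's total), and 1 count in the 13 ruptured libraries. That limit of 3 counts is a 2.96-fold lower share of all counts than the 12 counts observed on the putative unruptured side. The counting error of these 12 and the spread between libraries are not covered, so 2.96 is no firm minimum. On the ruptured side, where 1 count was left, the ratio of post-hCG to no hCG was 0.141 (95% exact interval 0.00307 to 1.17, covering counting error only). Exons of Gli1 overlap those of Arhgap9 on the other strand, and the counts are not stated to use strand, so these few counts could come from either gene.

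Hhip, a target that binds ligand at the cell surface (chromosome 8, 79965851 to 80058006), had 67 counts on the putative unruptured side, in 14 of 15 libraries. It had 22 on the putative ruptured side, in 5 of 14 libraries. Post-hCG there were 14 in the unruptured and 15 in the ruptured libraries. Its highest library, on the unruptured side post-hCG, was at 0.970 TPM, and it too failed the filter in each comparison. Fitted without the filter, the log2FC of Hhip between media on the unruptured side was −1.55 (SE 0.54, edgeR adjusted p = 0.0251) and that of Gli1 −2.77 (SE 0.75, adjusted p = 0.00522). Both rest on the few counts given here, in a fit that called 29.5% of all genes.

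The ligands were counted from the same tables. Shh had 2 counts in putative unruptured libraries, 1 in putative ruptured ones and none post-hCG. Ihh, the granulosa ligand, was found in all 29 libraries without hCG, with medians of 0.420 TPM in putative unruptured (0.10 to 2.61) and 1.56 in putative ruptured ones (0.150 to 6.47). Post-hCG it was nearly gone, with 4 counts in 4 of 12 unruptured libraries and 2 counts in 2 of 13 ruptured libraries. On the ruptured side its TPM ranges in the 2 media did not overlap, as held for 4.34% of the genes tested there in the lower direction. Ihh itself was under the filter and not among those genes. The ratio of its share of all counts on that side, post-hCG over no hCG, was 0.00912 (95% exact interval 0.00110 to 0.0334, covering counting error only).

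Ihh failed the filter in each comparison. Fitted without it, when 8.49% of genes were called between the sides without hCG, Ihh was higher on the putative ruptured than on the putative unruptured side (log2FC 1.80, SE 0.35, edgeR adjusted p = 0.000551). It was also called lower post-hCG, in unruptured (−3.20, SE 0.58, adjusted p = 2.99e-05) and in ruptured libraries (−5.59, SE 0.52, adjusted p = 1.30e-11), where 29.5% and 33.7% of all genes were called. Dhh remained measurable in all groups, with medians of 0.620, 0.915, 0.820 and 0.800 TPM in the order putative unruptured, putative ruptured, unruptured and ruptured. It too was under the filter in each comparison of 2 groups, and without the filter it was called higher on the putative ruptured than on the putative unruptured side (log2FC 1.18, SE 0.29, edgeR adjusted p = 0.00672). Ihh exceeded Dhh in 11 of 14 putative ruptured libraries and in 0 of 13 ruptured libraries post-hCG. Exons of Dhh overlap those of Rhebl1 on the same strand, so its level is uncertain.

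Of the members, 0 of 6 that passed the filter were called between the sides without hCG, at an edgeR FDR of 0.05, where 17.8% of the 9063 genes tested were called. Of these, 2 had an unadjusted p under 0.05. Cdon had a log2FC of −0.73 (SE 0.27, adjusted p = 0.0558), and Smo one of −0.25 (SE 0.12, adjusted p = 0.159). Cdon passed the filter only in comparisons that held the putative unruptured group, where it averaged 17.0 counts per library (7.64 on the putative ruptured side). Its entry into the test thus depended on the group where it was high. Gas1 was at −0.70 (SE 0.38, adjusted p = 0.219), Boc at 0.13 (SE 0.13, 0.547), Ptch1 at −0.11 (SE 0.14, 0.668) and Gli3 at −0.25 (SE 0.17, 0.343). Cdon stood at the edge of the threshold: it passed with all 4 groups in 1 fit (adjusted p = 0.0355), and in 6 of 29 refits that left out 1 library (adjusted p from 0.0247 to 0.0990), namely without putative unruptured replicate 1, 3, 12 or 13 or putative ruptured replicate 5 or 11. Scaling by library totals turned 801 higher and 812 lower calls over all genes into 585 and 905.

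Post-hCG, 5 members passed the filter between the sides, and all 5 had a log2FC above 0 in the fit on counts, though not on TPM. Beside Gas1 and Boc these were Ptch1 at 0.22 (SE 0.17), Smo at 0.22 (SE 0.15) and Gli3 at 0.26 (SE 0.20), as descriptions with no test. Over all 8585 genes tested, 21.4% were called, and the median log2FC was 0.01. Scaling by library totals moved that median to −0.14 and the calls from 862 higher and 971 lower to 397 and 1830. Relative to the median of all genes, Ptch1 was at 0.21 with TMM and at 0.20 with library totals, but at −0.02 on log2(TPM + 1). Taken as they stand, the values on log2(TPM + 1) were −0.23 for Ptch1, −0.08 for Smo, 0.02 for Boc, 0.05 for Gli3 and 1.94 for Gas1.

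With hCG on the unruptured side, 4 of the 5 tested members fell. Ptch1 had a log2FC of −0.59 (SE 0.15, edgeR adjusted p = 0.00166), Gli3 of −0.55 (SE 0.19, 0.0126), Cdon of −0.77 (SE 0.27, 0.0179) and Smo of −0.33 (SE 0.13, 0.0250), and Boc was at −0.11 (SE 0.11, 0.434). In folds the decreases were 1.51 for Ptch1, 1.47 for Gli3, 1.70 for Cdon and 1.26 for Smo. Lower calls made up 27.7% of the 9320 genes tested, and calls in either direction 53.1%. None of the 4 calls was found on TPM values: limma on log2(TPM + 1) gave adjusted p-values of 0.443 for Ptch1, 0.210 for Gli3, 0.632 for Cdon and 0.182 for Smo, and the TPM ranges of the 2 media overlapped for each. Smo also lost its call without unruptured post-hCG replicate 1 (adjusted p = 0.0511) and with thinned counts (0.0549), whereas the other 3 kept theirs in 27 of 27 refits that left out 1 library. Cdon fell under the filter with thinned counts and was not tested there. In the main fits it passed only where the putative unruptured group was compared (17.0 counts per library, against 8.08 on the unruptured side post-hCG). Its test thus depended on the group where it was high.

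Relative to the median of all genes, the scaling moved these 4 members little. The fit on log2(TPM + 1), which also changed the method, moved Cdon from −0.74 to −0.18 and Gli3 from −0.52 to −0.37. Smo hardly moved, from −0.30 to −0.28. With library totals the median of all genes on the unruptured side went from −0.03 to −0.25 and the calls from 2365 higher and 2582 lower to 1455 and 3844, but Ptch1 relative to that median was at −0.56 with TMM and −0.55 with library totals. On TPM, where 2091 genes were called higher and 1624 lower, it was at −0.21 relative to the median. The theca and stroma markers moved with the fall, from a summed median of 777 TPM to 367, as did the granulosa markers, from 4072 to 1554, and their part in the fall of the members was not tested. Without the 4 libraries that held oocyte markers, the same count of 4 members was called lower.

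With hCG on the ruptured side, 0 of 4 tested members were called, while 60.1% of the 8531 genes tested were. Ptch1 had a log2FC of −0.26 (SE 0.16, edgeR adjusted p = 0.167) and was the only 1 of the 4 with a call under any alternative: −0.59 with library totals (adjusted p = 0.00238) and −0.47 by limma on log2(TPM + 1) (0.0248). The median of all genes moved to −0.33 with library totals and −0.14 on TPM, and relative to it Ptch1 was at −0.26 and −0.33, as against −0.26 with TMM. Calls over all genes went from 2532 higher and 2597 lower to 1376 and 4242 with library totals. Boc was at 0.09 (SE 0.13, adjusted p = 0.560), Smo at 0.15 (SE 0.15, 0.412) and Gli3 at −0.04 (SE 0.18, 0.862). For none of them was the TPM range of the 2 media apart, which held for 4.34% of genes in the lower direction.

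**Figure D3:**
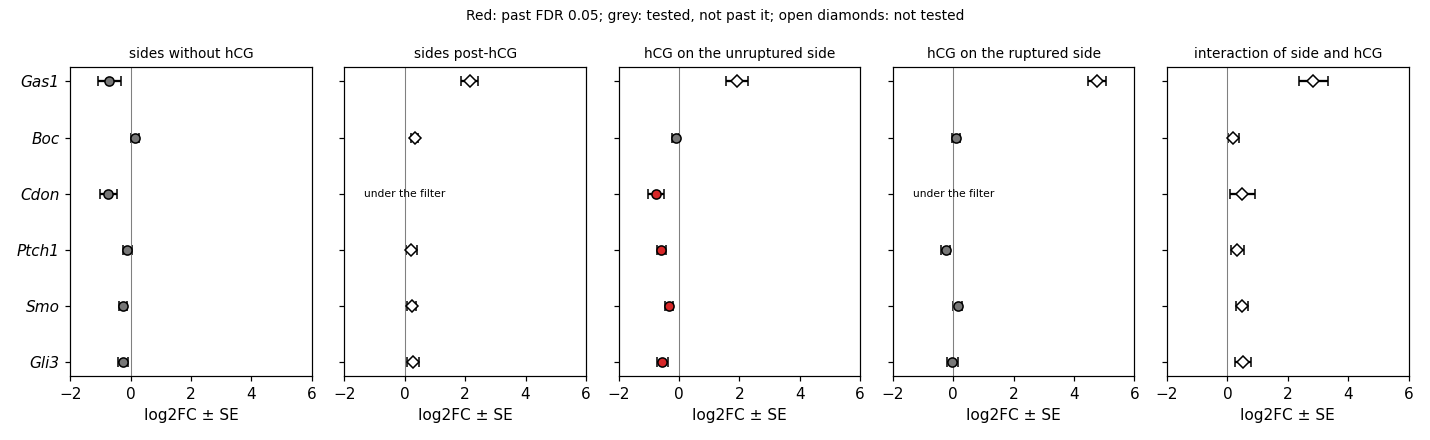
Log2FC ± SE (horizontal axes) of the 6 members that passed the expression filter in at least 1 comparison, with the 5 comparisons as panels, tested values as circles and untested ones as open diamonds. Gas1 reaches 4.76 with hCG on the ruptured side, the other members stay within 1 of 0, and 4 of them are past the threshold with hCG on the unruptured side.

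The interaction of side and hCG was above 0 for all 6 members that passed the filter. Beside Gas1 it was 0.51 for Gli3 (SE 0.26), 0.49 for Cdon (SE 0.41), 0.47 for Smo (SE 0.20), 0.33 for Ptch1 (SE 0.22) and 0.20 for Boc (SE 0.17). These values were not tested, and 3 of the 6 had the other sign on log2(TPM + 1): Cdon at −0.18, Ptch1 at −0.29 and Boc at −0.04. Of all 10013 genes, 8.91% were called, 426 higher and 466 lower, or 230 and 660 with library totals.

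The members were set against the theca and stroma markers within each group, for Gas1, Gli1, Ptch1 and Hhip, which made 15 pairs of gene and group, since Gli1 had no count on the unruptured side post-hCG. On the putative unruptured side, Gas1 had a Pearson r of 0.62 with the log2 marker sum (permutation p = 0.0139, adjusted 0.104) and a Spearman rho of 0.66 (permutation p = 0.00826, adjusted 0.0619, n = 15), and r was 0.44 without the 2 libraries farthest from the median. With CPM in place of TPM, rho was 0.78 (permutation p = 0.00121, adjusted 0.00907) and r was 0.64 (permutation p = 0.0113, adjusted 0.0563), so whether Gas1 passed there depended on the unit and on the measure. Post-hCG, r was −0.45 in the unruptured and 0.14 in the ruptured libraries, as descriptions with no test. Of the 15 pairs, 1 passed the adjusted threshold on TPM by either measure, Hhip on the putative ruptured side. There the libraries fell into 2 bands of the marker sum, split at its widest gap after the values were seen, so no pooled r is given. Hhip had a count in 5 of the 6 libraries with 212 to 816 TPM of markers and in 0 of the 8 with 20.7 to 69.1, and within the upper band r was 0.80 (exact permutation p = 0.0639, adjusted 0.224) and rho 0.71 (exact permutation p = 0.136, adjusted 0.476, n = 6). Ptch1 had an r of 0.83 (exact permutation p = 0.0154, adjusted 0.108) and a rho of 0.79 (exact permutation p = 0.0279, adjusted 0.195, n = 8) within the lower band, and −0.60 and −0.37 within the upper one (exact permutation p = 0.203 and 0.497, adjusted 0.355 and 0.870, n = 6). For Gas1, r was 0.64 in the lower and −0.04 in the upper band (exact permutation p = 0.0987 and 0.961, adjusted 0.230 and 0.961). Within these bands 0 of 7 pairs passed after adjustment over the 7.

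**Figure D4:**
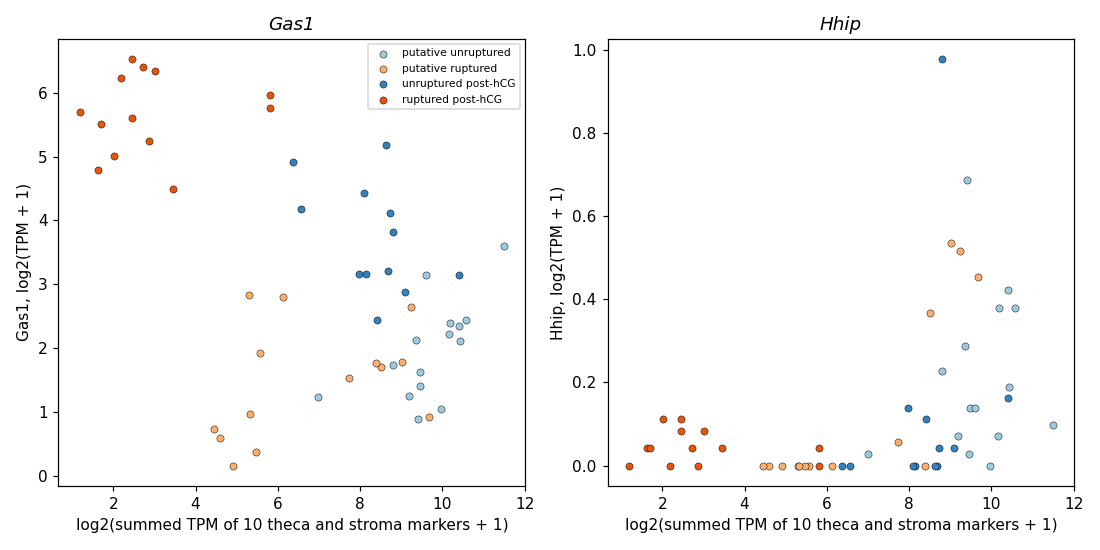
Gas1 (left) and Hhip (right) as log2(TPM + 1) against log2 of the summed TPM of 10 theca and stroma markers plus 1, 1 point per library, colored by group. The 13 ruptured libraries post-hCG lie at the upper left, with marker sums from 1.27 to 55.0 TPM, and overlap the unruptured side post-hCG in Gas1 and the putative ruptured side in marker sums, and Hhip counts on the putative ruptured side lie in the libraries with 212 TPM or more.

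Genes whose level varied most like a member were found over the 54 libraries after each group's mean was subtracted, among the 9883 genes whose mean reached 1 TPM. For Gas1 they were Srsf2 (Pearson r = 0.76), a splicing factor gene, Gnas (0.76), which encodes the stimulatory G protein subunit that couples the LH receptor to cAMP, Map7d1 (0.73), Mesdc1 (0.71) and Dusp5 (0.71), a phosphatase of ERK. Within single groups r ran from 0.56 to 0.84 for these 5. Unlike Gas1, Gnas was not high on the ruptured side post-hCG, with group means of 114, 75.3, 66.9 and 72.2 TPM in the order putative unruptured, putative ruptured, unruptured and ruptured. The means of Map7d1 (5.69, 4.28, 6.56 and 7.12 TPM), Mesdc1 (1.97, 0.989, 1.96 and 2.17) and Dusp5 (1.22, 0.746, 1.45 and 1.54) were, as for Gas1, highest on the ruptured side post-hCG and lowest on the putative ruptured side, with far smaller differences between the groups. Smo varied with Tcf3 (0.83), Patz1 (0.82) and Pacs1 (0.82), and Boc with Slc25a37 (0.75), Utrn (0.74) and Sprtn (0.74). For Ptch1 they were Rc3h2 (0.59), Ddah1 (0.59) and Ice1 (0.56), for Gli3 Atp11a (0.64) and Rae1 (0.59), and for Cdon Borcs5 (0.57), Zbtb46 (0.56) and Ccdc43 (0.54). The points of all these correlations share depth and RNA quality.

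The wider pathway was followed with a list of 36 genes, of which 24 passed the filter in at least 1 comparison. Without hCG, 2 of 22 tested were higher and 5 lower on the putative ruptured side (31.8%, beside 17.8% of all genes), and the median log2FC of the list was 0.03 beside −0.01 of all genes. Mycn, a proliferation gene and Hedgehog target, was higher by 1.49 (SE 0.29, edgeR adjusted p = 0.000460), and Sufu, which holds Gli factors in the cytoplasm, by 0.59 (SE 0.13, 0.000968). Gpc3, a membrane glypican that competes for ligand, was lower with −1.58 (SE 0.30, 0.000302), as were the stromal target Nr2f2 with −1.09 (SE 0.21, 0.000379) and the ciliary Smo partner Evc with −0.88 (SE 0.19, 0.00139). Spop (−0.43, adjusted p = 0.0119) and Prkar1a (−0.28, 0.0437) were also lower. Gpc3 and Evc averaged 5.21 and 7.36 counts per library on the putative ruptured side, against 21.3 and 18.3 on the putative unruptured side. Their entry into the test thus rested mainly on the group where they were high. Limma on TPM called 2 of the 7, Mycn and Gpc3. The theca and stroma markers were lower on the same side (a summed median of 57.9 against 777 TPM), and their part was not tested.

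Between the sides post-hCG, 1 of 17 tested list genes was called (5.88%, beside 21.4% of all genes): Gpc3, at −1.76 (SE 0.29, edgeR adjusted p = 3.19e-05). Its level was 4.80 ± 1.89 TPM on the unruptured and 1.13 ± 0.645 on the ruptured side. Gpc3 averaged 30.5 and 8.31 counts per library there, so its entry into the test rested mainly on the unruptured group. The median of the list was −0.03 beside 0.01.

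With hCG on the unruptured side, 7 of 21 tested list genes rose and 7 fell (66.7%, beside 53.1%), and the medians were −0.10 and −0.03. The survival gene Bcl2 fell by 3.00 on the log2 scale (SE 0.28, edgeR adjusted p = 8.19e-11), from 2.12 ± 1.00 to 0.267 ± 0.226 TPM. Nr2f2 fell by 1.52 (SE 0.21, 2.84e-07), Evc by 1.32 (SE 0.20, 2.14e-06) and Kif7, a ciliary motor that regulates Gli processing, by 0.79 (SE 0.24, 0.00745). Gpc3 rose by 0.82 (SE 0.23, 0.00330), Ift172, of ciliary transport, by 0.72 (SE 0.18, 0.00127), and Sufu and Prkaca, the catalytic subunit of protein kinase A, by 0.70 each (adjusted p = 4.17e-05 and 0.00537). The 6 other calls were 3 higher and 3 lower. Bcl2, Evc and Kif7 averaged 3.69, 5.83 and 7.92 counts per unruptured library post-hCG, against 37.3, 18.3 and 17.5 without hCG. Their entry into the test thus rested mainly on the group where they were high. Exons of Kif7 overlap those of Ticrr on the other strand.

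With hCG on the ruptured side, 3 of 19 tested list genes rose and 7 fell (52.6%, beside 60.1%), and the medians were −0.03 and 0.00. Mycn fell by 4.87 (SE 0.39, edgeR adjusted p = 1.30e-12), from 3.90 ± 1.99 to 0.172 ± 0.261 TPM. Its TPM ranges did not overlap, as held for 4.34% of the genes tested there in the lower direction. Bcl2 fell by 3.13 (SE 0.34, 1.31e-09). Prkaca rose by 1.47 (SE 0.20, 1.06e-07), and Scube1, which helps to release ligand, by 0.61 (SE 0.15, 0.000572). The ciliary genes Kif3a and Arl13b fell by 0.85 (SE 0.12, 3.28e-07) and 0.61 (SE 0.20, 0.0110), Prkacb by 0.45 (SE 0.14, 0.00613), and Spop rose by 0.56 (SE 0.12, 0.000187). The 2 other calls, both lower, were Disp1 and Evc2. Mycn, Bcl2 and Arl13b averaged 0.923, 2.59 and 8.38 counts per ruptured library post-hCG, and Prkaca 6.50 per putative ruptured library. Their entry into the test thus rested mainly on the group where they were higher (29.5, 22.6, 12.6 and 18.6 counts). In the dot plot of the list, Prkaca, Scube1, Spop, Bcl2, Disp1, Kif3a and Prkacb are called in the same direction on both sides.

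**Figure D5:**
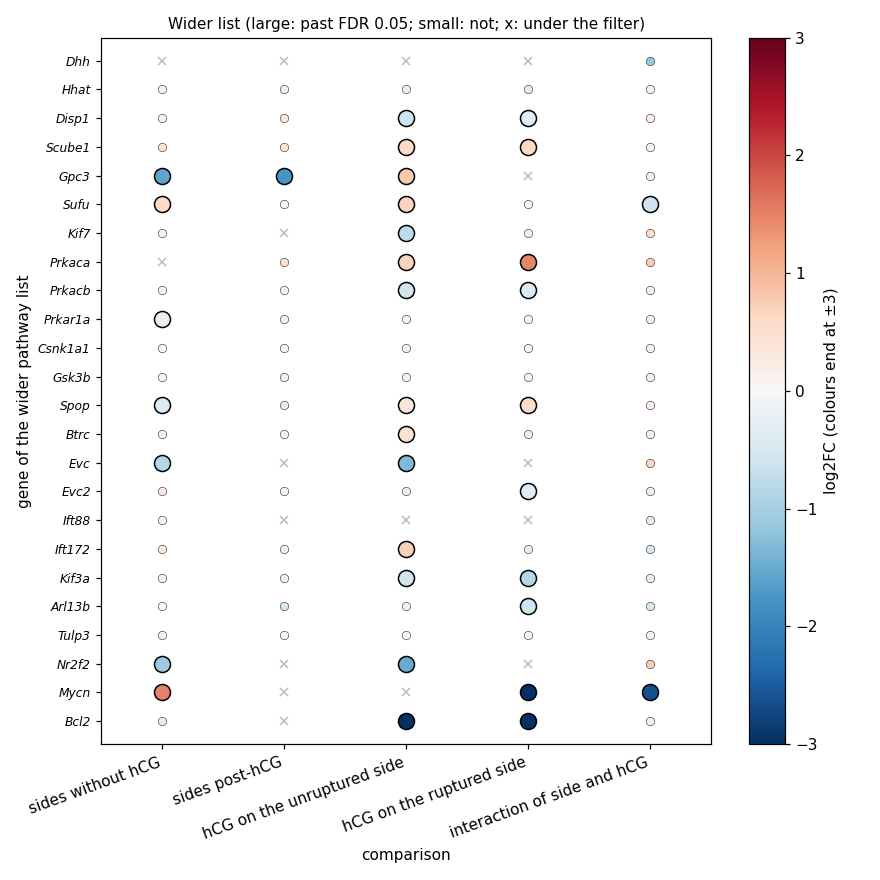
Log2FC (color) of the 24 wider pathway genes that passed the filter in at least 1 comparison (rows) in the 5 comparisons (columns), with large dots for genes past an FDR of 0.05, small dots for the others and crosses where the gene was under the filter. Most large dots stand in the 2 hCG columns, 14 and 10 of them, and 1 in the column of sides post-hCG.

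For the interaction of side and hCG, 2 of 24 tested list genes were called (8.33%, beside 8.91%), both below 0, and the medians were −0.10 and −0.01. Mycn had −2.64 (SE 0.70, edgeR adjusted p = 0.0106) and Sufu −0.62 (SE 0.18, 0.0179). Mycn was near the floor post-hCG, at 2.33 counts per unruptured and 0.923 per ruptured library.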

How the data were processed

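Single follicle sides were amplified with Smart-Seq2 and sequenced paired-end. The authors aligned reads to GRCm38, corrected batches with ComBat-seq and deposited, per gene, estimated counts and TPM values (counts scaled by transcript length and library). The counting program, and whether the deposited values precede the batch correction, are not given in the sources used here, nor are the batches, so no comparison within batches could be made.

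The members and lists were chosen with earlier results of these data known. Counts were rounded (72.2% of non-zero counts were whole) and fitted with edgeR 4.0.16 in R 4.3.3: expression filter (min.count 10, min.total.count 15), TMM, quasi-likelihood F-test, two-sided, Benjamini-Hochberg adjustment over all genes tested, FDR 0.05. The 5 comparisons were the sides in each medium, the media on each side and the interaction. On simulated data with 100 genes changed 2-fold and 100 changed 4-fold, the fit of the media on the unruptured side recovered 92.0% and 95.0% among 9346 genes. For the interaction it was 69.0% and 91.0%. The changed genes were drawn from those past the filter. Smaller changes, such as the 1.26- to 1.70-fold decreases of the called members, were not simulated. Alternatives used DESeq2 1.42.0 and limma 3.58.1. Levels are TPM or log2(TPM + 1), a scale that understates changes of low genes. Correlations used 100000 permutations, two-sided, with Benjamini-Hochberg adjustment over 15 pairs.

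All 9 members and the 3 ligands were named, at most 8 called genes of the wider list per comparison by size, and for likeness the 5 genes nearest to Gas1 and 3 for each other member with a mean of 10 counts. In the wider list Disp1 and Evc2 on the ruptured side were named beyond this rule, after their values were seen. A member under the filter was too low to judge there. Positions are those of GENCODE M21. No 2 libraries of a group repeated each other within sampling noise. The authors' metadata file was not used. One gene that the rule for likeness to a member would name is not reported here.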

Additional observations from a re-analysis of the deposited data

Results flagged for a closer look

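The difference between the sides in the response to hCG was tested for the 36 genes of the wider pathway list, and 2 of the 24 that passed the filter were called by edgeR. For Mycn the interaction was −2.64 (SE 0.70, adjusted p = 0.0106): its mean went from 3.90 to 0.172 TPM on the ruptured side and from 1.50 to 0.308 on the unruptured side. The mean was thus lower post-hCG on both sides, but Mycn was under the filter between media on the unruptured side. Post-hCG it averaged 2.33 counts per unruptured and 0.923 per ruptured library, so the interaction rests on values near the floor. For Sufu the interaction was −0.62 (SE 0.18, adjusted p = 0.0179): its mean went from 3.26 to 5.70 TPM on the unruptured side and from 3.82 to 4.10 on the ruptured side.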

How the results depend on the processing

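Between the sides without hCG, the count of 0 members called became 1 (Cdon) with all 4 groups in 1 fit and ran from 0 to 1 when each library was left out in turn. With hCG on the unruptured side the count of 4 became 5 with library totals (Boc joined) and with DESeq2 (Hhip joined), 6 with no filter (Hhip and Gli1 joined), 2 with thinned counts and with the replicate block and 0 with limma at either pseudocount, and on the ruptured side 0 became 1 with library totals and with limma at either pseudocount. The refits that left out 1 library gave 3 to 4 members with hCG in unruptured libraries and 0 in ruptured ones. Members with a log2FC of at least 1 in size, of which there was 1 (Gas1) between the sides post-hCG and in the interaction, became 2 with DESeq2 and with no filter post-hCG, and 3 with DESeq2 and 4 with no filter in the interaction, since Gli2, Hhip and Gli1 then entered. Wider list calls without hCG went from 7 to 11 with DESeq2 and to 2 with limma at either pseudocount. Post-hCG they went from 1 to 2 with DESeq2, 3 with no filter and 5 with library totals or limma. With hCG they went from 14 to 22 (unruptured) and from 10 to 16 (ruptured) with DESeq2, and in the interaction from 2 to 1 (Mycn) with thinned counts. DESeq2 and the fits with no filter tested more genes, and the cause of the other changes was not tested. Of the 20 genes named as most like a member, 13 were also named by Spearman rho, and 7 of 9 members kept the order of their group means with a pseudocount of 0.1. Of the 15 correlations with theca markers, 1 passed by Pearson r with TPM and 1 with CPM, and by Spearman rho 1 with TPM and 3 with CPM, Gas1 on the putative unruptured side (adjusted p = 0.00907) and Ptch1 and Hhip on the putative ruptured side (0.0343 and 0.00555, all permutation tests). Refits without single libraries and without the 4 libraries with oocyte markers were chosen after seeing the data.

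The replicate numbers are shared between groups, and no source says that they pair the libraries. Deviations of same-numbered libraries correlated between −0.23 and 0.39 over the 4 comparisons, with 1 to 3 pairs over 0.1 in each of them. The best match had the same number in 2 of 14 (sides without hCG), 3 of 12 (sides post-hCG), 1 of 12 (media, unruptured) and 3 of 13 libraries (media, ruptured). The main fits thus did not pair by number, but these correlations cannot exclude a pairing. With the replicate block Cdon and Smo lost their calls on the unruptured side (edgeR adjusted p = 0.0773 and 0.107). Depth limits Gli1, Gli2, Hhip and Ihh throughout and Cdon post-hCG.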
